A study of Homo sapiens with 14 samples.

Results

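This account covers K562 cells in which TASOR2 was knocked down by CRISPR interference, set against K562 cells with the control guide sgAAVS1. K562 is an established erythroleukaemia line. All cells of the study, the untransduced ones included, carry dCas9-KRAB, an inactive Cas9 joined to a repressor domain that guides bring to a gene's start. The labels list 3 libraries of TASOR2 guides (sg1-TASOR2, sg2-TASOR2 and sg3-TASOR2), 3 replicates of sgAAVS1 and 2 libraries of untransduced cells, called dCas9, among 14 libraries in all. RNA was taken 7 days after transduction, and the sources used here do not say whether the cells were 1 clone or a pool. The deposited values are group means, and the steps in their low values show that the TASOR2 mean was made from 2 libraries and the sgAAVS1 mean from 3. The sources used here do not say which 2 of the TASOR2 guides these are. Of 35718 genes in the table, 15794 had a TASOR2 or sgAAVS1 mean above 0 and were compared. Untransduced cells served as a second control.

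TASOR2 is the scaffold that defines HUSH2, a chromatin-silencing complex that shares the subunits MPP8 and Periphilin (gene PPHLN1) with HUSH, whose scaffold is TASOR. HUSH is known for silencing young retrotransposons and other intronless DNA through methylation of histone H3 lysine 9. TASOR and TASOR2 compete for the shared subunits, and HUSH2 has been linked to the control of interferon-stimulated genes. KRAB zinc finger proteins are DNA-binding repressors, most of them encoded in clusters on chromosome 19. Interferon-stimulated genes encode antiviral proteins, and many of them carry in their promoters an interferon-stimulated response element, a repeat that STAT and IRF factors bind.

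Several interferon-stimulated genes stood far above sgAAVS1 in the TASOR2 knockdown, and 3 of their promoters that hold the element are shown with that of TASOR2 itself. Each is the RefSeq window from 250 bases before to 50 bases after the gene's start, on GRCh38.p14 and read along the gene's strand. Capitals mark matches to GAAANNGAAA, or to its complement, which stands here for the response element. They are IFIH1 at chr2:162318635-162318934 (minus strand), SAMD9 at chr7:93117930-93118229 (minus strand), IFIT1 at chr10:89392373-89392672 (plus strand) and TASOR2 at chr10:5684588-5684887 (plus strand).
IFIH1: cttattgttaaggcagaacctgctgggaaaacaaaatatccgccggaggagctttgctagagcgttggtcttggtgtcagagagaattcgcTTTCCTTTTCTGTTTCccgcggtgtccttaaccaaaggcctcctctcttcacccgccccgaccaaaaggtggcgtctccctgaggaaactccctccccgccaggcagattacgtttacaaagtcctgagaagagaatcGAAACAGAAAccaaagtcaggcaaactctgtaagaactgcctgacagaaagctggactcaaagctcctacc
SAMD9: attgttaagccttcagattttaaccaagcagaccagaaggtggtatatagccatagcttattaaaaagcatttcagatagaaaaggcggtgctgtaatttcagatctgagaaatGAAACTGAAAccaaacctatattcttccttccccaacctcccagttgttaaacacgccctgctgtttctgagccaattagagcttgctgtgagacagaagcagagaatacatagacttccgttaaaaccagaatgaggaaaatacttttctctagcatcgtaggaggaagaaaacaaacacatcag
IFIT1: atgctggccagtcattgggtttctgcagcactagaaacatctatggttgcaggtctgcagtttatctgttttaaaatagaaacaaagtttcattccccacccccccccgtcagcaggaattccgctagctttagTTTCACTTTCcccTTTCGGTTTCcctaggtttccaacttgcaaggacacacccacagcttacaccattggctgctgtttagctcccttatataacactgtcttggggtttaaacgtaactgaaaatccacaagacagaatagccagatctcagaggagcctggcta
TASOR2: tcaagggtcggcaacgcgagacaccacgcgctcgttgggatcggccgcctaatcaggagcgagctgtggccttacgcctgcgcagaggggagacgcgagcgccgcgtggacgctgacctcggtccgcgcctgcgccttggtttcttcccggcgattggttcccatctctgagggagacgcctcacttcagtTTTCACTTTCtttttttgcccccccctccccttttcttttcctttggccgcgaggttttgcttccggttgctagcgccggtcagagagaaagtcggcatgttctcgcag
The IFIH1 window holds 3 matches, of which the first 2, at -159 and -153 from the start, overlap, and the last begins at -21. The IFIT1 window holds 2, at -116 and -103, the SAMD9 window 1 at -136, and the TASOR2 window 1 at -59. The windows of SP110 and PSMB9, also called higher, held none and are not shown. Shares of promoters with a match are given below with the interferon-stimulated genes.

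The targeted transcript was lower in the TASOR2 knockdown. Values are group means in log2 units, on a scale close to RPM (reads scaled to library size). TASOR2, listed as FAM208B (protein-coding, chromosome 10, 5684838 to 5763740 on hg38, plus strand), had a mean of 6.03 in the TASOR2 knockdown, 7.68 in the TASOR, 7.86 in the MPP8 and 8.18 in the PPHLN1 knockdown, 7.45 with sgAAVS1 and 7.69 in untransduced cells. It differed from sgAAVS1 by -1.42 ± 0.11, where ± is the reach to either side of a 95% interval for counting error. With single libraries not in hand, no spread between libraries or guides could be measured, and no p-value is given. The TASOR2 knockdown held the lowest of the 6 means, and 37.5% of the sgAAVS1 level remained. In bulk RNA, fewer cells carrying a transcript and less transcript per cell cannot be told apart.

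Genes beside TASOR2 on chromosome 10 were not called. A gene is called higher or lower here when its TASOR2 mean lies 1 or more log2 units away, the higher mean is above 0 and the counting interval leaves out 0. Within 500 kb, 10 other genes were tested and none was called. The nearest on either side, ASB13 and GDI2, had TASOR2 means of 6.26 and 7.91, against sgAAVS1 means of 6.41 and 7.81. Their differences were -0.15 ± 0.12 and 0.10 ± 0.07.

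Genes of the other HUSH and HUSH2 subunits were not called. TASOR (FAM208A), the scaffold of HUSH, had a mean of 7.69 in the TASOR2 knockdown and 7.22 with sgAAVS1, a difference of 0.47 ± 0.08 that stayed below the rule of size. With the GC trend described below removed, this difference was 0.21. MPHOSPH8, which encodes the chromodomain subunit MPP8, had 6.60 in the TASOR2 knockdown and 6.52 with sgAAVS1, and PPHLN1 had 6.80 and 6.57. Of 38 tested genes of HUSH, its effectors and H3K9 methylation, 1 was called, TASOR2 itself, which was lower, and the list median of 0.06 lay beside 0.07 for all tested genes. The H3K9 methyltransferase SETDB1 and the silencing ATPase MORC2 differed by -0.03 and 0.14, and ATF7IP, which stabilises SETDB1, by 0.52 ± 0.07.

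Across all tested genes, 372 were higher (2.36%) and 334 lower (2.11%) in the TASOR2 knockdown than with sgAAVS1. Against untransduced cells, 225 of the same genes were higher (1.42%) and 436 lower (2.76%). The 2 controls also differed from each other without any knockdown, with 133 genes higher (0.842%) and 39 lower (0.247%) in untransduced cells than with sgAAVS1. Calls that hold against both controls numbered 164 higher (1.04%) and 215 lower (1.36%), or 223 higher and 134 lower after quantile normalization. The gene with the largest difference was not called against the second control: THBD, which encodes thrombomodulin and was chosen after its values were seen, had 3.13 in the TASOR2 knockdown, -2.73 with sgAAVS1 and 3.23 in untransduced cells. It was 5.86 ± 1.71 above sgAAVS1 and -0.11 from untransduced cells.

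Most called genes had few reads. Of the 372 higher genes 86 had a TASOR2 mean above 3, and of the 334 lower genes 41 had an sgAAVS1 mean above 3. The median reach of the interval to either side was 0.86 for higher and 0.90 for lower genes, against 0.15 for all tested genes.

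**Figure D1:**
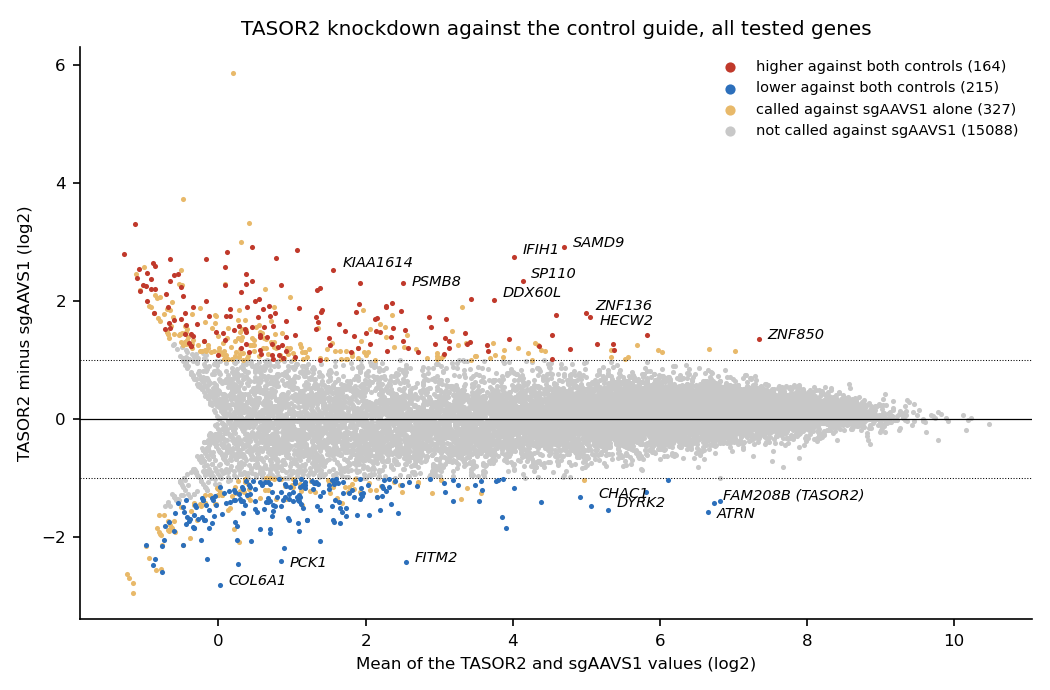
Each point is 1 of 15794 tested genes, with the mean of the TASOR2 and sgAAVS1 values across and the TASOR2 minus sgAAVS1 difference up, both in log2 units. Red and blue points are the 164 higher and 215 lower against both controls, yellow points are called against sgAAVS1 alone, dotted lines mark differences of 1 and -1, and some genes are named, such as SAMD9 (2.91) and ATRN (-1.57). Called genes lie mostly at low means.

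Part of the interferon-stimulated genes, which act against viruses, were higher in the TASOR2 knockdown, and most were not called. The table lists 86, of which 72 were tested, and 21 of these were higher (29.2%, against 2.36% of all tested genes) and 0 lower. Their median difference was 0.50, against 0.07 for all tested genes. The filter admitted 6 of the 72 through the TASOR2 mean alone, and 15 of the 21 had an sgAAVS1 mean above 0 as well. Against both controls 13 were higher.

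The largest difference in the list belonged to SAMD9 (chromosome 7, 93099513 to 93118023), an antiviral factor that restricts poxviruses. Its mean was 6.15 in the TASOR2 knockdown, 4.14 in the TASOR, 5.89 in the MPP8 and 6.09 in the PPHLN1 knockdown, 3.24 with sgAAVS1 and 3.08 in untransduced cells. The TASOR2, MPP8 and PPHLN1 means stood together above the rest, and TASOR2 differed by 2.91 ± 0.24 from sgAAVS1 and by 3.07 ± 0.27 from untransduced cells. Its paralog SAMD9L, the adjoining gene, had 3.08 in the TASOR2 knockdown, 0.78 with sgAAVS1 and 0.69 in untransduced cells, a difference of 2.30 ± 0.58 from sgAAVS1.

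Some sensors and effectors that bind viral RNA were called and others were not. IFIH1 (chromosome 2, 162267079 to 162318703), the gene of MDA5, a sensor of long double-stranded RNA, had 5.39 in the TASOR2 knockdown, 2.84 in the TASOR, 5.04 in the MPP8 and 5.40 in the PPHLN1 knockdown, 2.64 with sgAAVS1 and 3.16 in untransduced cells. It differed from sgAAVS1 by 2.75 ± 0.29. The neighbours IFIT2, IFIT3 and IFIT1 on chromosome 10 (89301955 to 89406486), whose proteins bind foreign RNA, were 3 consecutive tested genes called higher, by 1.90 ± 0.95, 1.07 ± 0.36 and 2.71 ± 1.47. IFIT1 rested on few reads, with means of 0.70 in the TASOR2 knockdown and -2.02 with sgAAVS1, and IFIT2 had 1.34 and -0.56. Both passed the filter through the TASOR2 mean alone, so the filter helped to make these genes consecutive. IFIT3 did not pass against untransduced cells. OAS3, which makes the messenger that activates RNase L, had 6.03 in the TASOR2 knockdown, 5.01 with sgAAVS1 and 5.34 in untransduced cells, where its difference of 0.69 did not pass. RIG-I (DDX58), the other main cytoplasmic RNA sensor, and DHX58, of the same family, differed by 0.88 ± 0.40 and 0.40 and were not called.

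Other antiviral effectors that passed against both controls include SP110, DDX60L, IFI6 and MX1. SP110, a nuclear body protein, had 5.30 in the TASOR2 knockdown, 2.96 with sgAAVS1 and 3.11 in untransduced cells (2.34 ± 0.27 from sgAAVS1). The helicase-like DDX60L had 4.76, against 2.73 and 2.83 in these controls, and IFI6, a small membrane protein, 4.45 against 2.42 and 2.59. The GTPase MX1 had 0.24 in the TASOR2 knockdown, -1.97 with sgAAVS1 and -1.56 in untransduced cells. MX1 rested on few reads, and it passed the filter through its TASOR2 mean alone.

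ISG15 encodes a ubiquitin-like tag for proteins. It had 4.67 in the TASOR2 knockdown, 3.47 with sgAAVS1 and 3.70 in untransduced cells, and passed against sgAAVS1 (1.20 ± 0.26) but not against untransduced cells (0.97). USP18, the protease that removes the tag, differed by 1.73 ± 0.68 from sgAAVS1 and by 1.62 from untransduced cells, while UBE2L6, the enzyme that conjugates it, differed by 0.40 from sgAAVS1 and was not called. HERC6, a paralog of the ISG15 ligase gene HERC5, differed by 2.91 ± 1.02 and 2.51. HERC6 also rested on few reads, with means of 1.91 in the TASOR2 knockdown, -0.997 with sgAAVS1 and -0.596 in untransduced cells. The apolipoprotein L gene APOL2 had 5.99 in the TASOR2 knockdown, 4.72 with sgAAVS1 and 4.80 in untransduced cells, a difference of 1.27 ± 0.16 from sgAAVS1.

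The second control mattered for several members. TNFSF10, which encodes the death ligand TRAIL, had 0.97 in the TASOR2 knockdown, -0.36 with sgAAVS1 and 1.0 in untransduced cells, so it was called against sgAAVS1 alone. TRIM22 and MX2, both restriction factors, differed from untransduced cells by 0.43 and 0.26.

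Not all of the list moved. Protein kinase R (EIF2AK2) differed by 0.54 ± 0.07, the RNA-editing enzyme ADAR by 0.30, the ubiquitin ligase TRIM25 by 0.06 and the nuclear body scaffold PML by 0.00. RSAD2, which encodes viperin, and the giant ubiquitin ligase RNF213 were at -0.28 ± 0.34 and -0.15. The 51 uncalled members spread from -0.37 to 0.96, the value of PARP9.

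**Figure D2:**
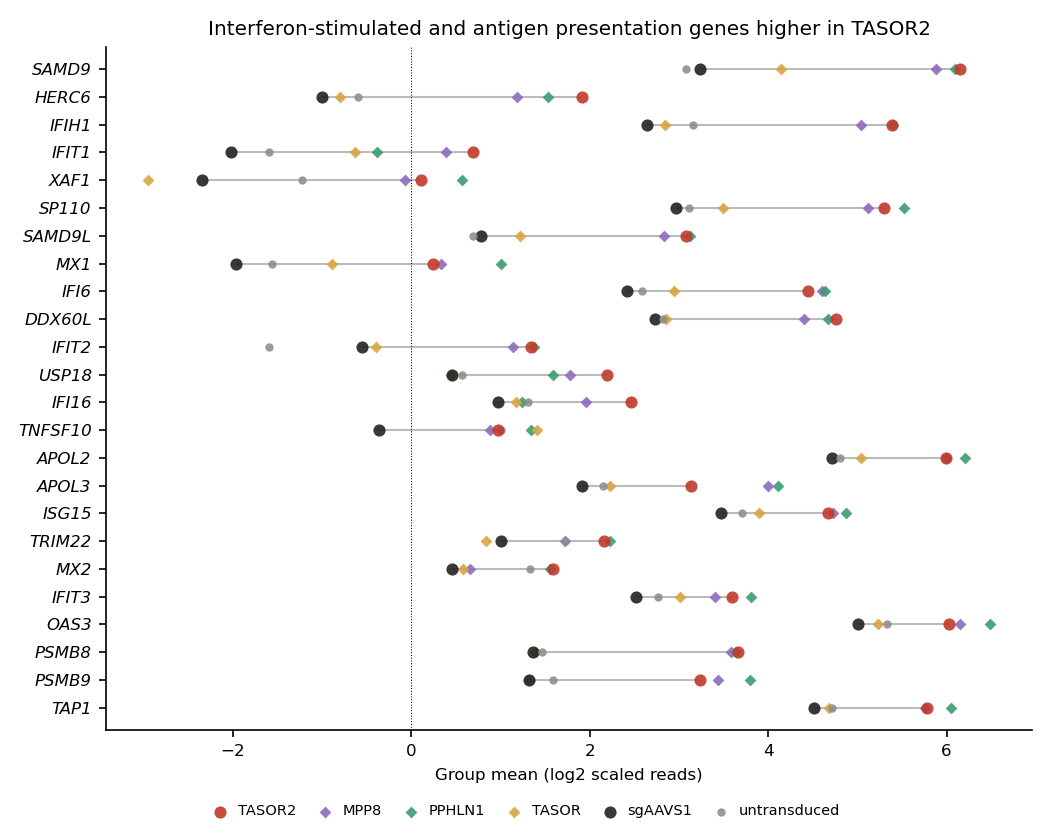
Group means in log2 units for the 21 interferon-stimulated and 3 antigen presentation genes higher in the TASOR2 knockdown than with sgAAVS1, in order of difference within each list; a grey line joins TASOR2 (red) and sgAAVS1 (black). The MPP8 and PPHLN1 means mostly lie near TASOR2, the TASOR and untransduced means mostly near sgAAVS1, with TNFSF10 (0.97 in the TASOR2 knockdown, 1.0 in untransduced cells) an exception.

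Upstream signalling genes did not pass the rule. Of 25 tested interferon ligand, receptor, STAT and IRF genes, 0 were called, and their median of 0.07 lay beside that of all tested genes. The receptor chain IFNAR1 differed by 0.49 ± 0.09. STAT2, IRF9 and IRF7 differed by -0.12, 0.00 and 0.15. Of 20 further nucleic acid sensing genes, among them the adaptors MAVS (-0.12) and STING (TMEM173, -0.16), 0 were called.

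Antigen processing genes called higher lay at 1 locus. PSMB8 and PSMB9, catalytic subunits of the immunoproteasome, and TAP1, a chain of the peptide transporter, are consecutive tested genes on chromosome 6 (32840717 to 32859585). The annotated spans of PSMB8 and PSMB9 overlap, and TAP1 lies within that of PSMB9, so reads they share cannot be told apart. PSMB8 had 3.66 in the TASOR2 knockdown, 1.36 with sgAAVS1 and 1.47 in untransduced cells, a difference of 2.30 ± 0.47 from sgAAVS1. PSMB9 and TAP1 differed by 1.91 ± 0.49 and 1.27 ± 0.18, and all 3 passed against both controls. They were the 3 called higher among 22 tested antigen presentation genes (13.6%, against 2.36% of all tested genes). TAP2, the second transporter chain, adjoins them (32813767 to 32838822) and was not called, at 0.83 ± 0.10. HLA-B, a class I heavy chain, differed by 0.87 ± 0.43 and was not called, and B2M, the class I light chain, differed by 0.16. With the GC trend described below removed, 4 of the 22 were higher, PSMB8, PSMB9 and TAP1 among them.

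The response element was common in promoters of the list, called or not. Of 15 called interferon-stimulated genes with a RefSeq promoter, 10 held the motif GAAANNGAAA on either strand (66.7%), as did 19 of the 40 uncalled members (47.5%). Among all tested genes with a promoter, 301 of 10844 held it (2.78%), and among all RefSeq promoters 996 of 27305 (3.65%). Higher genes outside the list held it in 8 of 162 (4.94%) and lower genes in 4 of 139 (2.88%). The 8 outside the list include TAP1, GIMAP2 and GCA, the last a calcium-binding protein gene that lies head to head with IFIH1. GCA had 0.61 in the TASOR2 knockdown, -1.63 with sgAAVS1 and -1.89 in untransduced cells. GIMAP2, a GTPase of immune cells and the 1 tested member of its family, had 3.35 in the TASOR2 knockdown, 1.38 with sgAAVS1 and 1.85 in untransduced cells.

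Some zinc finger genes, most of them on chromosome 19, were also higher. Of 425 tested genes with a ZNF number, 37 were higher (8.71%, against 2.36% of all tested genes) and 1 was lower, ZNF648 (-1.83 ± 1.65). The median difference was 0.30 from sgAAVS1 and 0.16 from untransduced cells, where all tested genes had 0.07 and 0.05. The filter admitted 16 through the TASOR2 mean alone, 27 of the 37 had an sgAAVS1 mean above 0, and 16 passed against both controls.

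Chromosome 19 held most of the higher ones. There 30 of 217 tested zinc finger genes were higher (13.8%) with a median of 0.46, and elsewhere 7 of 208 (3.37%) with a median of 0.16. ZNF850 (36714383 to 36772825), a KRAB zinc finger gene with many reads, had 8.02 in the TASOR2 knockdown, 6.66 with sgAAVS1 and 6.86 in untransduced cells (1.36 ± 0.08 from sgAAVS1). ZNF136 had 5.90 in the TASOR2 knockdown, 4.10 with sgAAVS1 and 4.35 in untransduced cells (1.80 ± 0.19), and ZNF528 had 5.47, 3.70 and 4.09 in the same groups (1.77 ± 0.22). All 3 passed against both controls. ZNF235, ZNF112 and ZNF285 are consecutive tested genes (44228729 to 44401608), called higher by 1.42 to 1.71, of which ZNF235 (0.94 from untransduced cells) did not pass against both controls. Off chromosome 19, ZNF200 on chromosome 16 and ZNF502 on chromosome 3 differed by 1.42 ± 0.14 and 1.69 ± 0.51.

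The zinc finger list has 2 limits. Its transcripts had a median GC content of 43.1%, against 48.8% for all tested genes, and the difference fell with GC content as described below. With that trend removed, 28 were higher and the median was 0.21. Members of this family share sequence, and the sources used here do not say how reads matching several of them were counted. ZNF660, with the largest difference in the list (3.33 ± 1.09), had 2.08 in the TASOR2 knockdown, -1.24 with sgAAVS1 and 2.23 in untransduced cells.

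**Figure D3:**
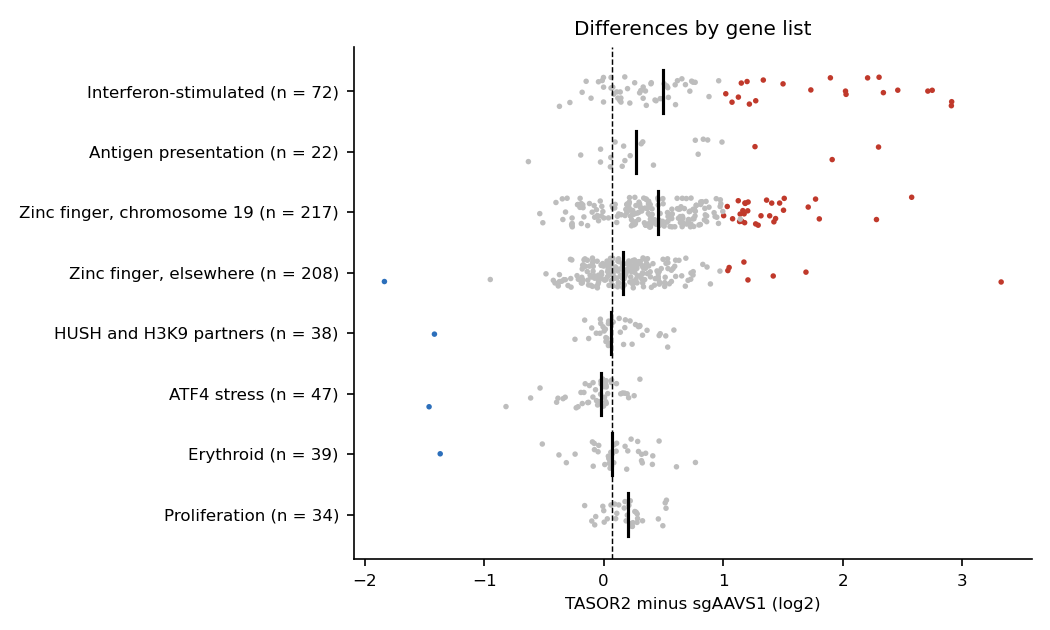
TASOR2 minus sgAAVS1 differences in log2 units, 1 point per tested gene, for 8 gene lists; black bars are list medians, the dashed line is the median of all tested genes (0.07), and red and blue points were called higher or lower. The interferon-stimulated (0.50) and chromosome 19 zinc finger (0.46) medians lie to the right, the other medians nearer the dashed line.

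The same lists were called to different extents in the other knockdowns, each against the same sgAAVS1 mean. Of the 72 interferon-stimulated genes, 21 were higher in the TASOR2, 19 in the MPP8, 24 in the PPHLN1 and 1 in the TASOR knockdown. All tested genes were called higher at 1.15% in the MPP8, 2.0% in the PPHLN1 and 1.22% in the TASOR knockdown. Of the 425 zinc finger genes, 37 were higher in the TASOR2, 44 in the MPP8, 55 in the PPHLN1 and 13 in the TASOR knockdown. Clustered protocadherins, adhesion genes, had 1 of 17 higher in the TASOR2 knockdown (PCDHGA11, 1.15 ± 1.07, and -0.45 from untransduced cells), against 15 in the MPP8, 17 in the PPHLN1 and 16 in the TASOR knockdown.

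Setting the TASOR2 mean directly against the other knockdown means divided its called genes. They were chosen on the TASOR2 mean, which every one of these differences shares. The choice favours such differences, so the medians and counts are a description and no test. The 16 interferon-stimulated and antigen presentation genes higher against both controls had a median difference of 0.22 from MPP8 and -0.02 from PPHLN1, with 0 and 1 called higher, and of 1.78 from TASOR, with 14 called higher. The 17 zinc finger genes, ZIK1 included, had medians of 0.16 from MPP8, -0.13 from PPHLN1 and 0.98 from TASOR. The other 131 higher genes had medians of 1.61 from MPP8, 1.58 from PPHLN1 and 1.37 from TASOR, with 95, 91 and 84 called higher. Only 44 of the 131 had a mean above 2, with medians of 1.43 from MPP8, 1.39 from PPHLN1 and 1.18 from TASOR. All tested genes were called higher in the TASOR2 knockdown at 1.58% against MPP8, 1.48% against PPHLN1 and 1.44% against TASOR.

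Some named genes of that remaining group show the pattern, and others do not. HECW2 (chromosome 2, 196194370 to 196593692), which encodes a HECT ubiquitin ligase, had 5.92 in the TASOR2 knockdown, 4.30 in the TASOR, 4.18 in the MPP8 and 4.28 in the PPHLN1 knockdown, 4.19 with sgAAVS1 and 4.83 in untransduced cells. KIAA1614 had 2.82 in the TASOR2 knockdown, between 0.59 and 0.97 in the other knockdowns, 0.30 with sgAAVS1 and -0.04 in untransduced cells. TXK, a Tec-family tyrosine kinase, had 3.94 in the TASOR2, 2.92 in the TASOR, 2.23 in the MPP8 and 1.08 in the PPHLN1 knockdown, 2.24 with sgAAVS1 and 1.62 in untransduced cells. In all 3 the TASOR2 mean was the highest of the 6, and the differences from sgAAVS1 were 1.73 ± 0.19, 2.52 ± 0.67 and 1.70 ± 0.37. GLIPR1 and CRYBG1 (AIM1) differed by 1.90 ± 0.49 and 2.22 ± 0.69. CRYBG1 also differed from sgAAVS1 by 1.21 ± 0.77 in the PPHLN1 knockdown. GIMAP2 and PAXIP1-AS2, also of the remaining group, were not called against MPP8 or PPHLN1. The TASOR2 mean of GIMAP2 was -0.36 from MPP8 and -0.57 from PPHLN1, and that of PAXIP1-AS2 was 0.25 and -0.06 from them.

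Lower genes, also chosen on the TASOR2 mean that every one of these differences shares, are described in the same way. The 215 lower against both controls had medians of -1.46 from MPP8, -1.43 from PPHLN1 and -1.52 from TASOR, with 170, 180 and 170 called lower, against 3.44%, 4.3% and 4.42% of all tested genes. The choice of genes favours such differences, so these counts are no test. Only 81 of the 215 had an sgAAVS1 mean above 2, with medians of -1.43 from MPP8, -1.43 from PPHLN1 and -1.46 from TASOR. Relative to sgAAVS1 the median of the 215 was -1.37 in the TASOR2 knockdown, 0.12 in the MPP8, 0.13 in the PPHLN1 and 0.15 in the TASOR knockdown, and 0.08 in untransduced cells.

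The lower genes with many reads come from varied functions. ATRN (chromosome 20, 3471040 to 3651122), which encodes the membrane protein attractin, had 5.86 in the TASOR2 knockdown, 7.43 with sgAAVS1 and 7.48 in untransduced cells, a difference of -1.57 ± 0.12 from sgAAVS1. The protein kinase gene DYRK2 had 4.52 in the TASOR2 knockdown, 6.06 with sgAAVS1 and 6.29 in untransduced cells (-1.53 ± 0.19). SLC4A7, a sodium bicarbonate cotransporter gene, had 3.68 in the TASOR2 knockdown, 5.07 with sgAAVS1 and 5.50 in untransduced cells (-1.39 ± 0.26). In all 3 the TASOR2 mean was the lowest of the 6. MBIP, which encodes a subunit of the ATAC acetyltransferase complex, and JHDM1D-AS1, a noncoding transcript beside KDM7A, differed by -1.65 ± 0.32 and -1.85 ± 0.32.

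FITM2 and PCK1, both of metabolism, had the largest decreases among the named genes lower than both controls with a mean above 2. FITM2 (chromosome 20, 44302838 to 44311169), needed to form lipid droplets, had 1.35 in the TASOR2 knockdown, 4.17 in the TASOR, 3.98 in the MPP8 and 3.94 in the PPHLN1 knockdown, 3.76 with sgAAVS1 and 3.91 in untransduced cells (-2.41 ± 0.55 from sgAAVS1). PCK1, the cytosolic enzyme of gluconeogenesis, had -0.35 in the TASOR2 knockdown, 2.05 with sgAAVS1 and 2.28 in untransduced cells (-2.40 ± 0.99). The other 14 tested lipid droplet and gluconeogenesis genes, a list drawn up with these 2 known, were not called. FGD1, an activator of the GTPase CDC42, LDHD, the D-lactate dehydrogenase, and PDGFB, a growth factor, differed by -2.07 ± 0.78, -1.76 ± 0.69 and -1.54 ± 0.55. COL6A1, a collagen VI chain, had -1.39 in the TASOR2 knockdown, 1.43 with sgAAVS1 and 2.18 in untransduced cells.

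**Figure D4:**
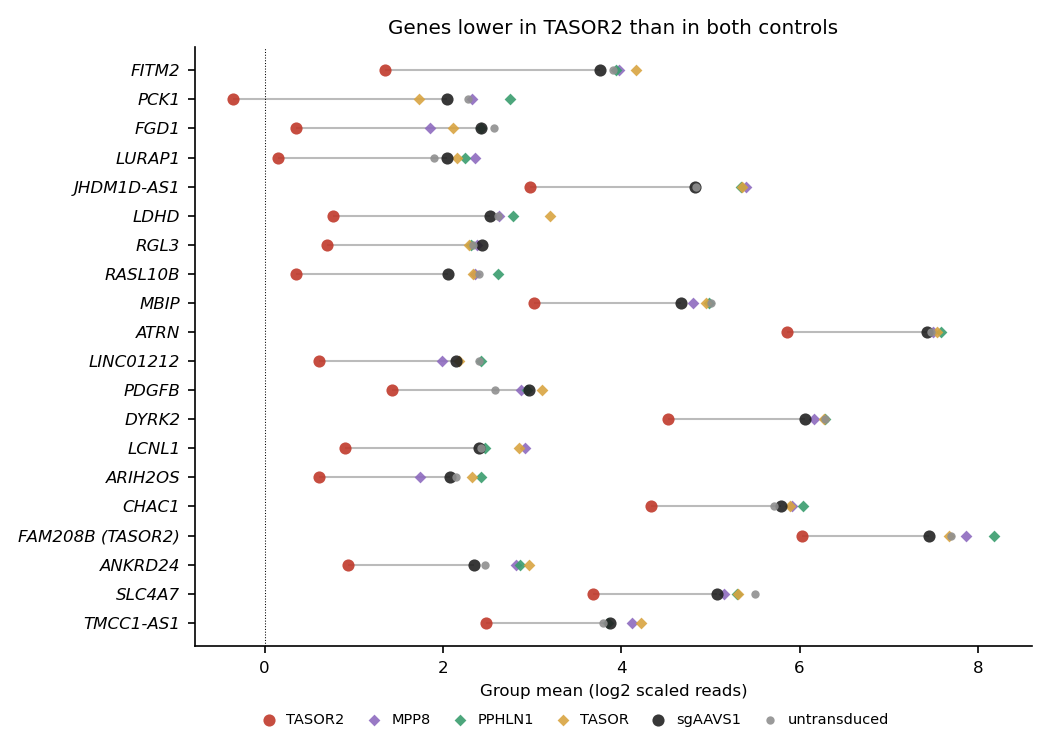
Group means in log2 units for the 20 genes with the largest decreases against sgAAVS1 among those lower than both controls with a mean above 2, readthrough and clone genes left out; a grey line joins TASOR2 (red) and sgAAVS1 (black). In every row the TASOR2 mean is the lowest of the 6, as for FITM2 (1.35 against 3.76).

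Stress genes were mostly not called. CHAC1, which degrades glutathione, had 4.33 in the TASOR2 knockdown, 5.80 with sgAAVS1 and 5.71 in untransduced cells (-1.46 ± 0.20), and was the 1 lower of 47 tested ATF4 stress genes (2.13%, near the 2.11% of all tested genes), whose median was -0.03. The ATF4 targets TRIB3 and ASNS differed by 0.00 and 0.11 and DDIT3 by -0.21. No gene was called of 20 in the unfolded protein response, 16 of the heat shock response, 28 of cholesterol synthesis or 23 targets of p53. In glycolysis and hypoxia 1 of 30 was lower, CA9, a carbonic anhydrase, at -1.23 ± 0.59 from sgAAVS1 and -0.21 from untransduced cells.

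Cell identity genes were mostly not called. All 14 defining erythroid markers were tested, with means of 3.36 to 8.34 in the TASOR2 knockdown and 3.32 to 8.20 with sgAAVS1, and differences between -0.10 and 0.77. Of 39 erythroid genes 1 was lower (2.56%, near the 2.11% of all tested genes): TRIM10, at -1.37 ± 1.01, which was not called against both controls. Of 9 globin and 22 erythroid transcription factor genes 0 were called. Of 34 proliferation genes 0 were called, with a median of 0.20. Lymphoid, myeloid and non-blood markers were partly absent, with 4 of 7, 4 of 7 and 5 of 8 below the filter. Their summed levels were 5.11, 6.39 and 6.98 in the TASOR2 knockdown, against 5.26, 6.37 and 7.01 with sgAAVS1. The 1 of them called was the monocyte receptor CD14, with 0.53 in the TASOR2 knockdown and -0.56 with sgAAVS1 (1.09 ± 1.05). CD14 rested on few reads and passed the filter through its TASOR2 mean alone. In wider lists, the granulocyte protease gene PRTN3 was lower (-1.24 ± 0.70, against both controls), as was GP6, a platelet collagen receptor gene (-1.25 ± 0.34, not against both). These 2 were the lower genes of 11 tested myeloid and 11 tested megakaryocyte genes (9.09% of each, against 2.11% of all tested genes). The myeloid and megakaryocyte medians were -0.25 and -0.12, against 0.07 for all tested genes. The megakaryocyte integrin gene ITGA2B had 6.32 in the TASOR2 knockdown and 7.31 with sgAAVS1. Its difference of -0.997 ± 0.11 fell just short of the rule, and its difference from untransduced cells was -0.72. With the GC trend described below removed, ITGA2B stood at -0.82 and PRTN3 was not called (-0.999).

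A trend with GC content ran through the comparison. Over 9226 genes with a mean above 5, the TASOR2 minus sgAAVS1 difference fell as the GC content of the longest transcript rose (Spearman's rho of -0.70 across genes, which share the same libraries). The median difference was 0.35 in the lowest of 10 bins by GC content (30.2% to 38.4%) and -0.11 in the highest (61.5% to 73.9%). Against untransduced cells rho was -0.50, and untransduced cells against sgAAVS1 gave -0.54. The TASOR, MPP8 and PPHLN1 knockdowns against sgAAVS1 gave 0.18, 0.32 and 0.34, so the TASOR2 knockdown ran the opposite way from the other knockdowns.

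Called genes followed the trend. In the lowest of 10 GC bins over all tested genes, 70 were higher (4.47%) and 15 lower (0.958%), and in the highest bin 18 were higher (1.15%) and 60 lower (3.84%). Median GC content was 43.5% for higher genes, 55.5% for lower genes and 48.8% for all. A smooth trend subtracted from the differences left 318 higher (2.03%) and 283 lower (1.81%) of 15642 genes with a GC value, of which 294 and 248 had also been called before. Interferon-stimulated genes, with a median GC content of 49.2%, had 20 of their 21 calls left, with a median of 0.53. SAMD9 stood at 2.65, IFIH1 at 2.64, FITM2 at -2.42 and TASOR2 at -1.56 after the trend was removed.

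**Figure D5:**
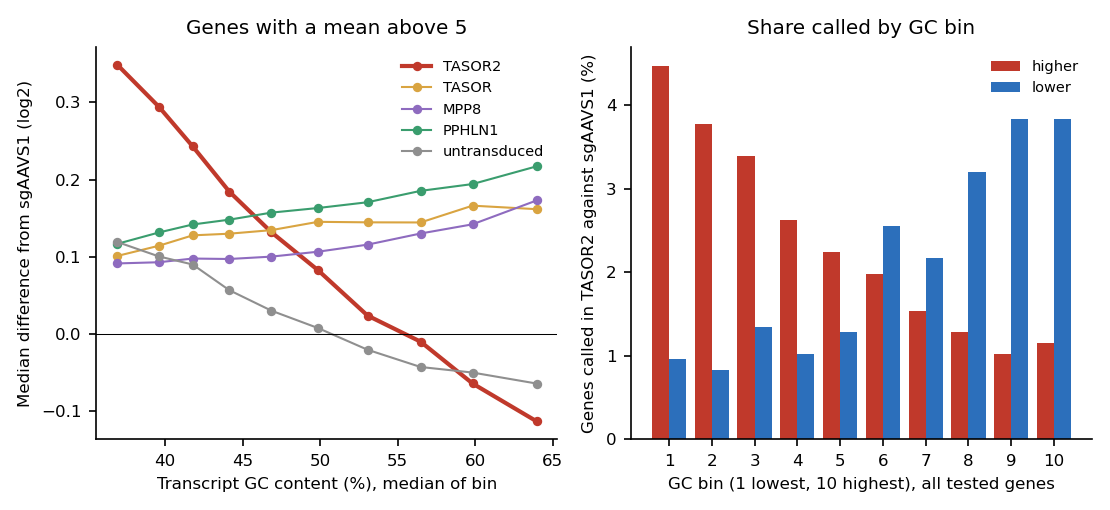
Left, median difference from sgAAVS1 in log2 units for each group in 10 equal bins of transcript GC content, over genes with a mean above 5; right, the share of all tested genes called higher (red) or lower (blue) in the TASOR2 knockdown in each bin. The TASOR2 line falls from 0.35 to -0.11 across the bins, untransduced cells fall less, and the TASOR, MPP8 and PPHLN1 lines rise slightly.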

How the data were processed

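Total RNA of K562 cells was depleted of ribosomal RNA and made into strand-marking libraries with the NEBNext Ultra II Directional kit, per the labels' protocols. The submitters' processing notes name cutadapt, Bowtie2 and the hg38 build. The sources used here do not name the read counter, annotation release, use of strand in counting or tool versions, so reads of overlapping and antisense genes cannot be told apart. The table the authors deposited has 35805 rows, with the untransduced group's mean log2 value and, in 5 further columns, a quotient per group. The deposited quotients were found from the values to be a group's log2 mean over that of untransduced cells, and multiplying the 2 gave back each mean. In 102 rows with an untransduced value within 0.05 of 0 this is less exact.

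Low values were checked against whole reads: with 0 reads set to 0.9, 100% in each of 6 groups were means of log2 whole reads (tolerance 0.001), from 2 libraries per group and 3 for sgAAVS1. Taking the unit as RPM, depth was 5857937 reads per library for TASOR2, 6202795 for sgAAVS1 and 7406968 for untransduced cells, with 5925920 to 6945067 for the other groups. The linear values sum to between 1.18 and 1.32 times that of an exact RPM table per group, so the unit may not be exactly that. The intervals do not depend on it: they are 95% Poisson intervals on the reads behind both means, treat reads as independent, and cover counting error only. A group at 0 reads allows 3 counts over the group, which is -1.97 for TASOR2 and -2.63 for sgAAVS1.

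For 87 rows sharing a symbol, the highest was kept. Genes with a TASOR2 or sgAAVS1 mean above 0 entered. The limma test set out for single libraries could not be made on means, so the rule of size took its place. It was tried on simulated Poisson reads, with changes placed in genes with an sgAAVS1 mean above 2. The simulation held no spread between libraries or guides, so it cannot show how often the rule errs here. GC content came from the longest GENCODE v29 transcript, matched for 99.0% of tested genes, and a lowess trend (span 0.3) was subtracted relative to its median. Motifs were searched in RefSeq promoters, matched by symbol. The members and gene lists were chosen with earlier results of these data known. Named genes are the 4 targeted ones, the 20 most changed each way with a mean above 2 against both controls, called list members and neighbours of TASOR2; other names were chosen after their values were seen. Alternatives were the second control, median centring, quantile normalization, other filters and fold limits, a pseudocount of 1 and GC correction. Python 3.11.15, pandas 2.3.3, SciPy 1.17.1 and statsmodels 0.14.6 were used.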

Additional observations from a re-analysis of the deposited data

How the results depend on the processing

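Under the alternatives, none of the values of the 20 named genes most changed each way changed sign (412 also kept their side of the rule, and 28 missed a 4-fold limit). This was largely set in advance. These genes were chosen for large differences that pass against both controls, and other filters and fold limits leave the differences themselves unchanged. Of the medians of 7 lists, which have no test, 5 values changed sign: clustered protocadherins, at 0.12, gave -0.51 against untransduced cells and -0.28 with a filter at a mean of 2. HUSH and its partners, at 0.06, gave -0.01 with median centring and -0.03 with quantile normalization, and erythroid genes, at 0.07, gave -0.02 with quantile normalization. Quantile normalization also moved the proliferation median to 0.09. Against untransduced cells, with their own filter, 225 genes were higher and 535 lower, with 13 interferon-stimulated and 17 zinc finger genes higher and a GC rho of -0.50. Median centring gave 316 higher and 417 lower (148 and 266 against both controls), and quantile normalization 389 higher and 275 lower (223 and 134 against both), set beside 372 and 334 (164 and 215). A filter at a mean of 2 left 135 higher and 110 lower, and 70 and 78 against both controls. A pseudocount of 1 RPM left 125 higher and 68 lower, 68 and 38 against both, with 13 interferon-stimulated and 23 zinc finger genes higher. A 1.5-fold limit gave 873 higher and 806 lower, 346 and 564 against both, with 32 interferon-stimulated and 107 zinc finger genes higher and 3 ATF4 genes lower. A 4-fold limit left 60 higher and 29 lower, 30 and 15 against both, 10 interferon-stimulated and 3 zinc finger genes higher and 0 ATF4 genes lower, and TASOR2 itself, at -1.42, missed it. Removing the GC trend left a rho of -0.017. The cause of these shifts was not tested beyond what each limit or filter sets by construction. Leaving out single libraries was not run, since the table holds means. No paired analysis was possible because the table holds 1 mean per group and no single libraries. Depth limits genes near a mean of 0, where the counting interval approaches the size of the rule.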

Other observations

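Noncoding transcripts held many of the calls in the TASOR2 knockdown. Of 12967 tested protein-coding genes 211 were higher (1.63%) and 162 lower (1.25%), and of 856 lincRNA genes 60 were higher and 60 lower (7.01% each way). Antisense genes had 55 higher (5.82%) and 59 lower (6.24%) of 945, and sense-intronic transcripts 5 higher and 18 lower of 238. In untransduced cells against sgAAVS1, 18 lincRNA genes were higher and 7 lower. Levels of these classes are low, and their share of the calls was not separated from their read depth. PAXIP1-AS2, an antisense gene on chromosome 7, had 3.73 in the TASOR2 knockdown, 2.0 with sgAAVS1 and 2.45 in untransduced cells, and 3.49 and 3.80 in the MPP8 and PPHLN1 knockdowns. CTD-2666L21.1, a pseudogene on chromosome 19, had no reads with sgAAVS1 and passed the filter through its TASOR2 mean alone. Its TASOR2 mean was 8.86-fold over a floor of 3 counts in the sgAAVS1 group. This ratio leaves out counting error in the TASOR2 mean, so it is not a lower bound.

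FXYD1, a regulator of the sodium pump, and the clone genes CTD-2527I21.5 and CTD-2527I21.4 are consecutive tested genes on chromosome 19 (35137645 to 35151336). They were lower by the rule against both controls, with differences of -1.41 to -1.18. The clone genes overlap (35137645 to 35139580 and 35138824 to 35151336), and FXYD1 starts within CTD-2527I21.5, so reads they share cannot be told apart. CTD-2527I21.4 passed the filter through its sgAAVS1 mean alone, and with the GC trend removed it was not called (-0.99). HIST1H2BA, a testis histone gene, had 1.56 in the TASOR2 knockdown, -0.47 with sgAAVS1 and 0.50 in untransduced cells, and was the 1 called of 55 tested histone genes (1.82%, against 2.36% of all tested genes called higher). It passed the filter through its TASOR2 mean alone. ZIK1, a zinc finger gene without a number, had 2.88 in the TASOR2, 2.89 in the TASOR, 4.19 in the MPP8 and 4.61 in the PPHLN1 knockdown, 0.94 with sgAAVS1 and 1.5 in untransduced cells. FAM111A, an antiviral protease gene chosen after its values were seen, had 7.27 in the TASOR2 knockdown, 6.07 with sgAAVS1 and 6.34 in untransduced cells, from which its difference of 0.93 did not pass, and its promoter holds the interferon motif. Of 78 ribosomal protein and 13 mitochondrially encoded genes 0 were called.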
